A study of Mus musculus with 12 samples.

Results

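Peaks of 3 transcriptional regulators and 1 histone mark were described over 8 genes of the programme of multiciliated cells. They were Gmnc, Mcidas, Trp73, Myb, Ccno, Foxj1, Rfx2 and Rfx3. Every peak that touched the RefSeq body of 1 of these genes (mm10) or the 50 kb on each side was taken, which gave 400 of the 487064 peaks in 9 lists. Each peak was linked to the protein-coding gene whose annotated end lay nearest to its midpoint. Of the 400 peaks, 208 were thereby linked to 1 of the 8 genes and 192 to a neighbour. The 8 genes were set beside all 21883 protein-coding genes treated in the same way.

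The assay was CUT&RUN: antibodies bound to chromatin guide a nuclease that releases the DNA next to them. All libraries came from lungs of pooled wild-type C57Bl6 mouse fetuses at E17.5, from cells held on EpCAM microbeads, with 100000 cells per reaction, and no library carried a mutation or treatment. There were 3 NKX2-1, 2 PRDM16, 1 PRDM3 and 3 H3K4me3 libraries with peak lists, and the 3 IgG samples were not analysed here. PRDM16 replicate 1 used a rabbit antibody and replicate 2 a sheep antibody. The labels do not say that replicates came from separate pools of animals, so the p-values measure only the spread between these libraries. NKX2-1 is the homeodomain factor of lung epithelium. PRDM16 and PRDM3 are zinc-finger paralogs, and H3K4me3 is a histone methylation found at active promoters.

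Multiciliated cells of the airway build many motile cilia from amplified basal bodies after leaving the cell cycle. In the known order of the programme, GEMC1 (Gmnc) acts first and induces multicilin (Mcidas), which joins E2F4 or E2F5 and DP1. Downstream stand the transcription factors p73 (Trp73), MYB, FOXJ1, RFX2 and RFX3 and the cyclin-like protein CCNO, which is needed for basal body amplification. At E17.5 airway epithelium is a small part of the lung beside the forming alveoli. The EpCAM selection takes all epithelial cells, so a peak could come from any of them. Fewer cells of a type and less binding per cell cannot be told apart. H3K4me3 lay within 1 kb of an end of 6 of 6 lung epithelial marker genes, 3 of 4 ciliated genes (Foxj1 itself among them, not Dnah5) and 2 of 3 airway secretory genes (not Scgb1a1), against 55.7% of all genes. It also lay at 2 of 4 mesenchymal genes (Col1a1 and Col1a2) and 1 of 3 endothelial genes (Kdr). The part of such cells in the peaks was not tested.

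The libraries differed in strength. The share of peaks with q under 0.05 was 76.4%, 10.8% and 12.9% in NKX2-1 replicates 1 to 3, 44.5% and 45.0% in PRDM16 replicates 1 and 2, and 42.3% in PRDM3. All H3K4me3 peaks passed that limit. By the letter in the peak names the libraries formed 2 series, of which the second held only NKX2-1 and H3K4me3 replicates 2 and 3. For NKX2-1, series and share of peaks at q under 0.05 cannot be told apart.

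The sequences at the starts of these genes are shown first because 5 of them share a motif. RFX proteins bind the X-box, a DNA element with an arm GTTGCC. The letters GTTGCC, on either strand, were found within the 300-base promoter (250 bases before to 50 after the start) in Rfx2, Rfx3, Mcidas, Ccno and the upstream start of Trp73. Those are 5 of 9 promoters of 7 genes in the RefSeq table (GRCm38.p6), against 12.5% of 32851 promoters in that table. Of the 6 promoters of these genes that overlapped an H3K4me3 peak 5 held it, against 12.8% of 14180 such promoters of all genes. The match is a description of letters, and RFX binding was not measured. The 30 bases around each match follow on the strand of the gene, with the matched letters in capitals. For Trp73 the match is on the opposite strand and reads GGCAAC.
Rfx2: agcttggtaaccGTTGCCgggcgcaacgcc
Rfx3: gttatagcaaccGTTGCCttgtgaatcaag
Mcidas: gggggaagccagGTTGCCaggttggttaac
Ccno: acccgggctgcgGTTGCCacggtgacgaca
Trp73: tccaggcgaggaGGCAACgctgcagcccag
They lie at chr17:56831107-56831136 (minus strand), chr19:28011118-28011147 (minus), chr13:112993661-112993690 (plus), chr13:112987571-112987600 (plus) and chr4:154139856-154139885 (minus). Counted from the start base as 0, the matches begin at position -116 in Rfx2, -195 in Mcidas, -219 in Ccno, 31 in Rfx3 and 2 in Trp73.

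The other motifs searched on both strands were rarer among the 9 promoters. The NKX2-1 core CAAGTG was in 1 (the inner start of Gmnc), against 13.6% of all promoters. The forkhead core TGTTTAC was in 1 (Myb), against 3.65%, and the E2F core GCGGGAA was in 1 (the upstream start of Trp73, in 2 places), against 4.6%. CCAAT was in 2 (Rfx2 and the upstream start of Gmnc), against 37.4%. No motif overlapped another in these promoters.

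The promoters also differed in base composition, and Ccno and the upstream start of Gmnc are shown as examples. The 250 bases before each are shown on the strand of the gene, from chr13:112987552-112987801 (plus) and chr16:26991653-26991902 (minus), with the X-box arm of Ccno in capitals.
Ccno: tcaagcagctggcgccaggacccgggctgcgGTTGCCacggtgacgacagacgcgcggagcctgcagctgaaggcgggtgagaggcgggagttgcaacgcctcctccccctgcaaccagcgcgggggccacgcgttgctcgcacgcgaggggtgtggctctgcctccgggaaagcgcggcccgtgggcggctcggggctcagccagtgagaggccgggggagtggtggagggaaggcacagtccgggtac
Gmnc: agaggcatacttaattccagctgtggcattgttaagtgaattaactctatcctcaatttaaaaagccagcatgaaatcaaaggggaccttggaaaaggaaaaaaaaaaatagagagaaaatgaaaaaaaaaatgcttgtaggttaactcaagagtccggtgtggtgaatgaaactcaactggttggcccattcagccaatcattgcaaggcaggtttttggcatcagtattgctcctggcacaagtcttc
The 300-base promoter of Ccno held 33 CpG dinucleotides and that of the upstream start of Gmnc held 2. Those of Rfx2, Rfx3, Mcidas, Myb and the upstream start of Trp73 held 31 to 40. The inner starts of Gmnc and Trp73 held 14 and 6. The median was 22 over the promoters of all genes that overlapped H3K4me3 and 3 over the others.

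Most of the 8 genes carried peaks of the 3 regulators, often at the start and over H3K4me3. A region was a stretch of at least 20 bases covered in at least 2 of 3 NKX2-1 or H3K4me3 libraries, in both PRDM16 libraries, or in the 1 PRDM3 list. A linked NKX2-1 region was found at 6 of 8 genes, against 51.3% of all genes, and a PRDM16 region at 7 of 8, against 59.1%. A PRDM3 region was found at 8 of 8, against 67.2%, and an H3K4me3 region at 7 of 8, against 55.7%. A region shared by NKX2-1, PRDM16 and PRDM3 was linked to Foxj1, Rfx2, Rfx3, Mcidas, Ccno and Myb, 6 of 8, against 34.5%. These counts over 8 chosen genes are a description, with no test. Counting only regions within 1 kb of a gene end gave 4 genes for NKX2-1, against 44.3% of all genes, 6 for PRDM16, against 48.9%, and 7 for PRDM3, against 47.9%. It gave 6 for H3K4me3, against 55.7%, and 4 for shared regions, against 30.1%. The shared count was 3 without NKX2-1 replicate 3 (Rfx3, Mcidas and Ccno). With only peaks whose −log10 q reached 5, both the NKX2-1 and the shared count were 0. At that limit the windows held 1 peak of NKX2-1 replicate 3 and none of replicate 2. Almost no NKX2-1 region, which needs 2 libraries, could therefore form. Without NKX2-1 replicate 1, requiring both other libraries, Rfx3 and Myb kept an NKX2-1 region and Rfx3 kept a shared region. At q under 0.05, a limit added after seeing the data, Foxj1, Rfx2 and Rfx3 had an NKX2-1 region and the same 3 genes had a shared one. The shares of all genes under these alternative settings are not given, so the lower counts are not set against a general rate.

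**Figure D1:**
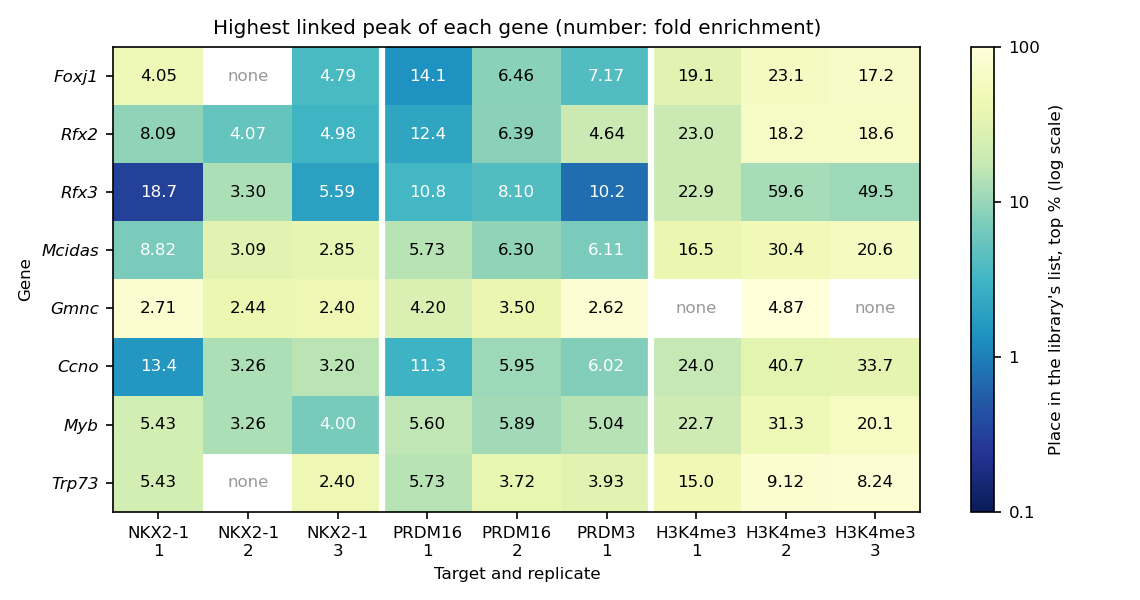
Highest linked peak of each gene (rows) in each library (columns, by target and replicate). The number is the authors' fold enrichment and the colour is the place of that peak in its library's list, on a log scale from top 0.1% (dark) to 100% (pale). Rfx3 reached 18.7 in NKX2-1 replicate 1, the highest Gmnc fold in any library was 4.87, and "none" means no linked peak.

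In single libraries a linked peak of any height was common. It was found at 8, 6 and 8 of the 8 genes in NKX2-1 replicates 1 to 3, against 68.2%, 71.8% and 77.5% of all genes. It was found at 8 and 8 in PRDM16 replicates 1 and 2, against 81.6% and 71.7%, and at 8 in PRDM3, against 67.2%. It was found at 7, 8 and 7 in the H3K4me3 libraries, against 59.4%, 56.0% and 54.2%.

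The fold enrichment of a peak is the authors' ratio of signal to background, read here only within a list. A peak's place is its rank as a percentage of its list, and peaks of equal fold share the best rank. Rfx3 had the highest linked peak of the 8 genes in NKX2-1 replicates 1 and 3, PRDM16 replicate 2, PRDM3 and H3K4me3 replicates 2 and 3. Foxj1 led in PRDM16 replicate 1, Rfx2 in NKX2-1 replicate 2 and Ccno in H3K4me3 replicate 1. The number of genes with a peak in the top 10% of its list was 4, 1 and 4 in NKX2-1 replicates 1 to 3, against 20.2%, 21.7% and 30.4% of all genes. It was 4 and 4 in PRDM16 replicates 1 and 2, against 33.5% and 22.4%, and 4 in PRDM3, against 17.0%. It was 0 in each H3K4me3 library, against 8.62%, 7.06% and 6.91%. Places of weak peaks are coarse, since 11583 peaks of NKX2-1 replicate 2 share the fold of the highest Ccno and Myb peaks there. In NKX2-1 replicate 3, 4061 peaks share the fold of the highest Myb peak, ranked 5428 of 79417. Its call in the top 10% therefore depends on giving tied peaks the best rank.

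Within the NKX2-1 lists the highest linked peak of Rfx3 exceeded that of Ccno in 3 of 3 libraries, and that of Myb exceeded that of Gmnc in 3 of 3. Rfx2 exceeded Rfx3 in 1 of 3. Within the H3K4me3 lists Ccno exceeded Myb in 3 of 3, and Rfx3 exceeded Ccno in 2 of 3. Means over lists mix the scales of the libraries and are given as a description. They also mix sites, since the highest linked peak of a gene did not always lie at the same site in each library. For NKX2-1 the sites differed between libraries at each gene but Ccno. Mean highest linked fold for NKX2-1 was 9.20 ± 8.31 at Rfx3, 6.61 ± 5.86 at Ccno, 5.71 ± 2.11 at Rfx2, 4.92 ± 3.38 at Mcidas, 4.23 ± 1.10 at Myb and 2.52 ± 0.171 at Gmnc (SD, n = 3). Foxj1 (4.42 ± 0.525, SD, n = 2) came between Mcidas and Myb, and Trp73 (3.91 ± 2.14, SD, n = 2) between Myb and Gmnc. Both lack a linked peak in NKX2-1 replicate 2, where the highest of the 8 genes, Rfx2, had only 4.07. Their means leave that low list out, so their place in the order is not over like libraries. With these 2 genes in place, no neighbours differed by more than the larger of their SDs. Those SDs include the differences in scale and in site between libraries. For H3K4me3 the means were 44.0 ± 18.9 at Rfx3, 32.8 ± 8.42 at Ccno, 24.7 ± 5.86 at Myb, 22.5 ± 7.17 at Mcidas, 19.9 ± 2.70 at Rfx2, 19.8 ± 3.03 at Foxj1 and 10.8 ± 3.67 at Trp73 (SD, n = 3). Foxj1 and Trp73 were the only neighbours with 3 values each whose H3K4me3 values did not overlap.

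**Figure D2:**
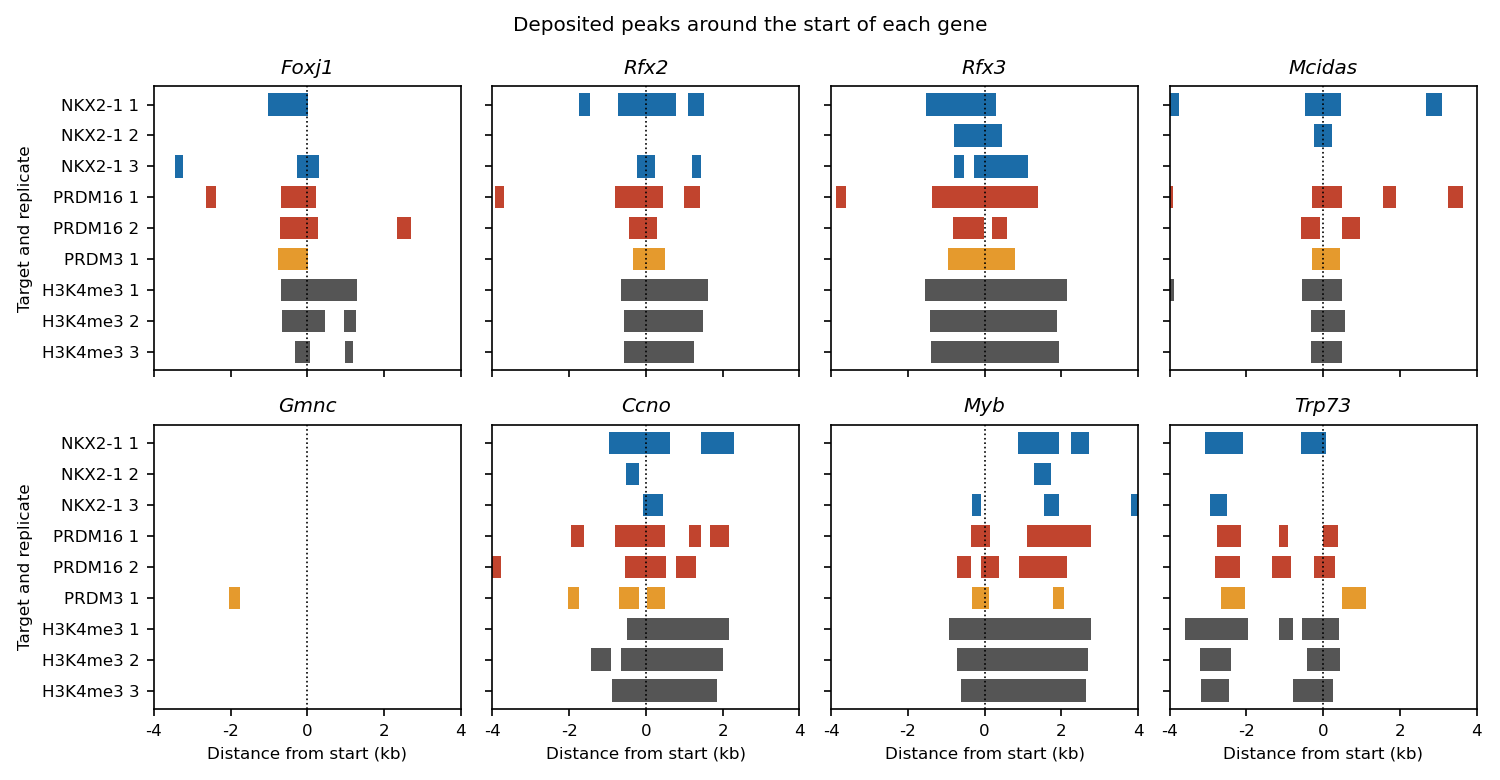
Deposited peaks (bars) of each library (rows) within 4 kb of the start of each gene, with the gene body to the right of the dotted line. Starts are the RefSeq starts (the upstream one for Gmnc and Trp73), and for Foxj1 the higher gene end. Bars of all 6 factor libraries lie at the start of Rfx3, and the panel of Gmnc holds 1 bar, of PRDM3, away from the start.

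Rfx3 encodes an X-box factor needed for motile and primary cilia (chr19:27761721-28014669, minus strand). At its start (28011166), peaks had a fold of 18.7, 3.30 and 4.71 in NKX2-1 replicates 1 to 3, 10.8 and 8.10 in PRDM16 replicates 1 and 2, 10.2 in PRDM3, and 22.9, 59.6 and 49.5 in H3K4me3 replicates 1 to 3. The NKX2-1 replicate 1 peak ranked 165 of 52685 (top 0.313%), and the PRDM3 peak ranked 391 of 52248 (top 0.748%). All 6 factor libraries had a peak here, with summits upstream of the start at positions -307 to -108. That of NKX2-1 replicate 2 did not reach q under 0.05. This start lies inside the annotated gene, so that H3K4me3 at Rfx3 was not within 1 kb of a gene end.

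A second Rfx3 region, chr19:28015804-28015855, was centred 1160 bases outside the gene and overlapped no H3K4me3 peak. It was the only shared region in the 8 windows without the mark. Peaks there had a fold of 7.68 in NKX2-1 replicate 1 and 5.59 in replicate 3, where it was the highest Rfx3 peak, with none in replicate 2. PRDM16 replicates 1 and 2 had 4.30 and 4.74, and PRDM3 had 3.27. Without NKX2-1 replicate 1, without replicate 3, at q under 0.05 or with the 20000 strongest peaks of each factor library no such region remained, and without H3K4me3 replicate 1 there were 2 shared regions off the mark. Inside the gene, 18804 bases from its lower end, both PRDM16 libraries had a peak without H3K4me3 (chr19:27780154-27780897), with a fold of 4.38 and 6.23, where NKX2-1 replicate 1 had 3.03.

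Rfx2, the RFX factor prominent in multiciliated and male germ cells, carried its highest peaks at its start except in NKX2-1 replicate 2 (chr17:56775897-56831008, minus strand). The fold was 8.09 in NKX2-1 replicate 1 and 4.98 in replicate 3, with none in replicate 2. It was 12.4 and 6.39 in PRDM16 replicates 1 and 2, 4.64 in PRDM3, and 23.0, 18.2 and 18.6 in the H3K4me3 libraries. The highest Rfx2 peak of NKX2-1 replicate 2 (4.07) lay inside the gene, off H3K4me3, at chr17:56812765-56813274. It was centred 17989 bases from the nearer end. The shared region, chr17:56830763-56831232, spans the start and contains the X-box arm shown above. Within the gene PRDM16 formed 3 further regions, 11053, 16320 and 22153 bases from the nearer end and off H3K4me3. At the farthest of them the fold was 8.17 and 5.33 in PRDM16 replicates 1 and 2, and NKX2-1 replicate 2 had 2.44. At the middle one PRDM3 also had a peak, with a fold of 3.27. NKX2-1 formed 1 region off H3K4me3 in the gene (chr17:56810364-56810443), where peaks of 7.68 in replicate 1 and 2.91 in replicate 2 met in 80 bases. The first of these peaks also covered a low H3K4me3 peak of replicate 1 (4.75) beside the region.

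Foxj1, the forkhead factor of motile cilia, had peaks of every target at its higher end (chr11:116330704-116335499). PRDM16 had a fold of 14.1 in replicate 1 (rank 1563 of 111440, top 1.40%) and 6.46 in replicate 2, and PRDM3 had 7.17. NKX2-1 had 5.05 in replicate 1 and 4.79 in replicate 3, with none in replicate 2, and H3K4me3 had 19.1, 23.1 and 17.2. The peak of NKX2-1 replicate 1 lay with its midpoint nearer to the end of the neighbour Rnf157, so by the nearest end the highest Foxj1 peak of that library was another one, with a fold of 4.05. That peak lay in a second H3K4me3 region, chr11:116319255-116319543, which was centred 11305 bases beyond the lower gene end. PRDM16 replicate 1 (8.11) and NKX2-1 replicate 3 (3.20) had peaks there too.

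Ccno and Mcidas stand side by side on chromosome 13 with Cdc20b, a gene of the same programme that hosts the Mir449 microRNAs. Ccno (chr13:112987802-112990778, plus strand) had peaks of each factor library within 250 bases of its start. The fold was 13.4, 3.26 and 3.20 in NKX2-1 replicates 1 to 3, 11.3 and 5.95 in PRDM16 replicates 1 and 2, 6.02 in PRDM3, and 24.0, 40.7 and 33.7 in the H3K4me3 libraries. The NKX2-1 replicate 1 peak covered those of replicates 2 and 3, which did not meet, and 2 shared regions were counted. The replicate 2 and 3 peaks did not reach q under 0.05. A PRDM16 region off H3K4me3 was centred 5153 bases before the gene (chr13:112982448-112982850), with a fold of 3.58 and 2.37, where PRDM3 had 4.75 and NKX2-1 replicate 1 had 5.12.

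Mcidas (chr13:112993581-113000394, plus strand) had weaker peaks at its start, at 3.29 and 2.19 in NKX2-1 replicates 1 and 2, with none in replicate 3. Those peaks stood at the places of 72.9% and 88.3% in their lists, and the replicate 2 peak had a −log10 q of 0.0601. PRDM16 had 4.34 and 6.30 and PRDM3 had 4.97 there, with H3K4me3 at 13.5, 30.4 and 20.6. Beyond its far end a shared region, chr13:113000961-113001069, had 8.82 in NKX2-1 replicate 1 (the highest Mcidas peak of that library), 2.85 in replicate 3, 5.73 and 3.78 in PRDM16, and 6.11 in PRDM3. H3K4me3 was low there, at 7.14 in replicate 1 and, just beside the region, 4.05 in replicate 2. The NKX2-1 replicate 3 peak of this region had a −log10 q of 0.449.

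**Figure D3:**
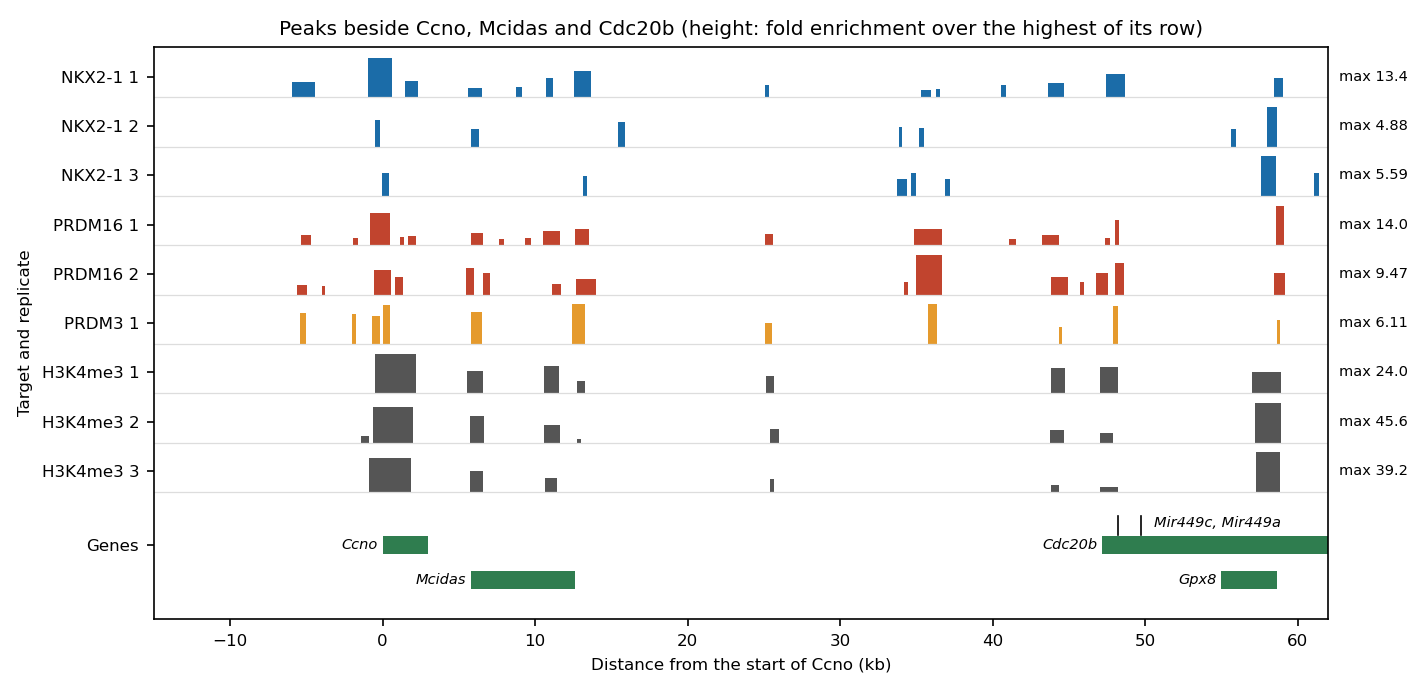
Peaks of each library (rows) along the stretch with Ccno, Mcidas and Cdc20b, by distance from the start of Ccno in kb. Bar height is fold enrichment as a share of the highest peak of the row in this stretch, whose value stands at the right, and green boxes are genes. The tallest PRDM16 replicate 2 peak, 9.47, lies between Mcidas and Cdc20b where no H3K4me3 row has a bar.

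Between Mcidas and Cdc20b, centred 11353 bases before the start of Cdc20b, lay a PRDM16 region without H3K4me3 (chr13:113022796-113024448). The fold was 5.69 in PRDM16 replicate 1 and 9.47 in replicate 2 (top 2.22%), and PRDM3 had 6.10. NKX2-1 peaks there were low, at 2.37 and 2.80 in replicate 1 and 2.32 in replicate 2, with 3.20 in replicate 3 just outside the region. At the start of Cdc20b, peaks over Mir449c had a fold of 8.96 and 7.70 in PRDM16 replicates 1 and 2, 5.89 in PRDM3 and 7.85 in NKX2-1 replicate 1, with none in NKX2-1 replicates 2 and 3. H3K4me3 had 15.9, 11.3 and 5.16 at the Cdc20b start. The miR-449 family is abundant in multiciliated cells, and 2 of its members from the RefSeq table are shown with the seed (bases 2 to 8) in capitals.
mmu-miR-449c-5p: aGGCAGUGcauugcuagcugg
mmu-miR-449a-5p: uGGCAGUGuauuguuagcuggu
Both carry the seed GGCAGUG, and they lie at chr13:113036008-113036028 and chr13:113037549-113037570.

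Myb, the MYB factor also used by progenitors of many tissues, carried broad H3K4me3 over its start (chr10:21124930-21160984, minus strand). The H3K4me3 peaks were 3700, 3410 and 3245 bases wide, in the widest 5.13%, 5.78% and 5.65% of their lists. Those of Rfx3 were of like width, at 3696, 3317 and 3336 bases, whereas those of Mcidas were 1045, 992 and 827 bases wide beside list medians of 1390, 1438.5 and 1353. PRDM16 had 4.83 and 4.14 and PRDM3 had 5.04 at the Myb start, but NKX2-1 had a peak there only in replicate 3 (3.20). The highest Myb peaks of NKX2-1 replicates 1 and 3, at 5.43 and 4.00, lay elsewhere inside the gene and off H3K4me3. They were centred 15786 and 3951 bases from its nearer end. The shared Myb region was centred 1854 bases inside the gene (chr10:21159050-21159210). There NKX2-1 had 4.55 in replicate 1 and 2.83 in replicate 3, PRDM16 had 5.60 and 5.89, and PRDM3 had 4.58. In NKX2-1 replicate 2 a peak of 3.26 lay just beside it. Another replicate 2 peak of the same fold lay inside the gene off H3K4me3, 15565 bases from its nearer end.

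Trp73, whose p73 protein acts downstream of GEMC1, had 18 linked peaks, 7 of them in PRDM16 replicate 1 (chr4:154056249-154139875, minus strand). At its upstream start (154139875), NKX2-1 had 3.54 in replicate 1 only, PRDM16 had 3.50 and 3.50, PRDM3 had none within 250 bases, and H3K4me3 had 15.0, 9.12 and 8.24. The inner start (154097173) had no peak within 250 bases in any of the 9 lists. Within the gene, PRDM16 replicate 1 (5.73) and NKX2-1 replicate 1 (5.43) had overlapping peaks off H3K4me3, their highest at Trp73, 34474 and 34199 bases from its nearer end. No NKX2-1 or shared region was linked to Trp73. The 2 shared regions in its window were nearest to Wrap73 and Tprgl, so Trp73 gained an NKX2-1 and a shared region when any region in the window was counted.

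Gmnc had the lowest highest fold of the 8 genes in both PRDM16 libraries and in PRDM3 (chr16:26957235-26991675, minus strand). Its window held 18 factor peaks and 1 H3K4me3 peak, all linked to it. None of the 9 lists had a peak within 250 bases of its upstream start. At the inner start, NKX2-1 replicate 3 (2.27) and PRDM16 replicate 2 (3.50) had a peak. Its highest folds were 2.71, 2.44 and 2.40 in NKX2-1 replicates 1 to 3, 4.20 and 3.50 in PRDM16 replicates 1 and 2, and 2.62 in PRDM3. Of its factor peaks 2 had q under 0.05, both of PRDM16. The H3K4me3 peak, 4.87 in replicate 2, lay downstream of the inner start, at the place of 97.5% in its list. The 1 region linked to Gmnc was a PRDM3 peak centred 1869 bases outside the gene. A gene with no call here may still be bound or marked in cells too few to give a peak.

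At annotated starts, 6 of the 7 genes in the promoter table had an H3K4me3 peak within 250 bases of the same start in all 3 libraries, against 55.7% of 17491 genes. Peaks of all 6 factor libraries stood at the start of 2 of the 7, Rfx3 and Ccno, against 21.3%. Not all of these peaks reached q under 0.05. The −log10 q was 0.686 for NKX2-1 replicate 2 at both starts and 0.764 for replicate 3 at Ccno.

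NKX2-1 peaks were compared with PRDM16 and PRDM3 peaks for how often they lay over H3K4me3. In the 8 windows, 50.9%, 32.1% and 41.7% of the peaks of NKX2-1 replicates 1 to 3 shared at least 1 base with an H3K4me3 peak of any library. PRDM16 replicates 1 and 2 had 36.7% and 46.9%, and the PRDM3 value was 50.0%. The groups overlapped, with means of 41.6% ± 9.37 for NKX2-1 and 44.5% ± 6.97 for PRDM (SD, n = 3 each). The difference of -2.95 percentage points was smaller than the spread between libraries (p = 0.7 by an exact permutation test, two-sided, which cannot go below 0.1 with 3 libraries a group). Without NKX2-1 replicate 2 the difference turned to 1.76 percentage points. With the PRDM16 libraries alone it was -0.209. The PRDM group pools PRDM16, from a rabbit and a sheep antibody, with PRDM3, so its SD is not a spread of like replicates. In the first letter series alone NKX2-1 had 50.9% (1 library) and PRDM 44.5% ± 6.97 (SD, n = 3), and the second held no PRDM library. In the windows of all genes the NKX2-1 shares were 39.0%, 24.8% and 24.2%, the PRDM16 shares were 21.1% and 26.0%, and the PRDM3 share was 36.5%. Each library thus had a higher share in the 8 windows than over all genes, a difference that was not tested.

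**Figure D4:**
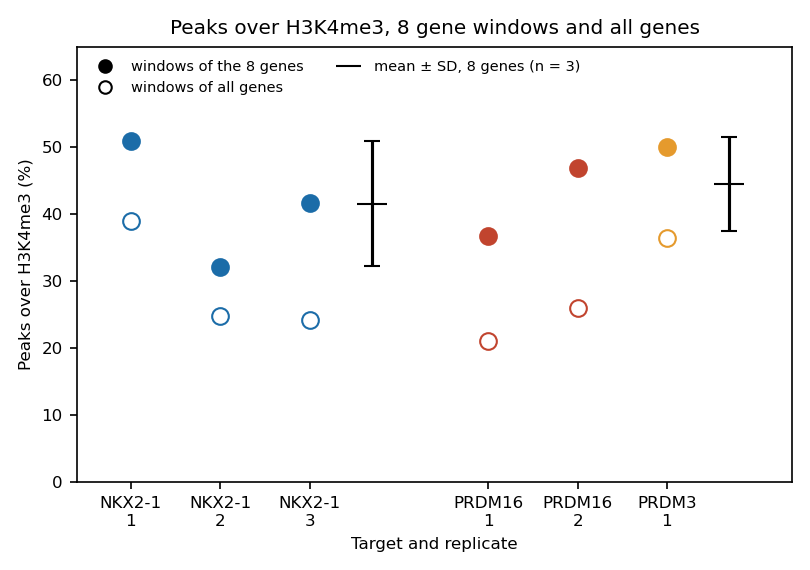
Share of peaks over H3K4me3 (percent) in each factor library. Filled points are the windows of the 8 genes, open points the windows of all genes, and bars are the mean ± SD of the filled points (n = 3 libraries). In all 6 libraries the filled point is above the open one, and NKX2-1 and PRDM points overlap.

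The number of the 8 genes with a peak within 1 kb of a gene end was 6, 2 and 7 in NKX2-1 replicates 1 to 3, against 57.6%, 40.8% and 47.7% of all genes. It was 7 in each PRDM library, against 63.1% and 56.2% for PRDM16 and 47.9% for PRDM3. The difference of -2 genes between NKX2-1 (5 ± 2.65) and PRDM (7 ± 0, SD, n = 3 each) did not exceed the NKX2-1 spread (p = 0.4, exact two-sided permutation test). With the PRDM16 libraries alone the difference was also -2. It was set mainly by NKX2-1 replicate 2, without which it was -0.5. H3K4me3 stood at 6 of 8 genes in each library, against 58.7%, 55.9% and 54.3%.

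Regions over the mark made up 18 of 22 NKX2-1 regions in the windows (81.8%, against 65.9% of all NKX2-1 regions). They made up 25 of 39 PRDM16 regions (64.1%, against 40.6%) and 18 of 36 PRDM3 regions (50.0%, against 31.4%). Of the 12 shared regions 11 overlapped it (91.7%, against 76.1% of 12185). Not all of these were separate sites. Those at the Rfx3 start lay under the same H3K4me3 peak, as did those at the Ccno start. Those in the Trp73 window were nearest to Wrap73 and Tprgl. The other 14 PRDM16 regions, such as those inside Rfx2 and between Mcidas and Cdc20b, and the other 18 PRDM3 regions lay off the mark.

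Among other genes of the programme, a list of 17 regulators and centriole genes was examined with the same rule. NKX2-1 regions were linked to 12, PRDM16 to 13, PRDM3 to 16, H3K4me3 to 13 and shared regions to 8 of the 17. The shares of all genes were 51.3%, 59.1%, 67.2%, 55.7% and 34.5% in the same order. The 8 were E2f5, a partner of multicilin, Gmnn, whose geminin protein is related to GEMC1 and multicilin, Rfx1, Rfx7, and the centriole genes Plk4, Cep152, Cep63 and Stil. Only Ccdc78, of the deuterosome pathway, had no linked region of NKX2-1, PRDM16 or PRDM3. No H3K4me3 region was linked to it either, although H3K4me3 lay within 1 kb of an end of Ccdc78. By the nearest end that region went to another gene, so a missing link there does not mean a lack of peaks.

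The genes with the most similar profile of peak places over the 9 libraries were named for each gene by the mean absolute difference in percentile, with a library without a linked peak counted as percentile 0. Foxj1 and Trp73 had a linked peak in 8 of the 9 libraries and Gmnc in 7. They were Hs6st1 for Rfx3 (2.29 percentile points), Psmc1 for Ccno (2.25), Cdkn3 for Rfx2 (2.80), Papolb for Gmnc (3.20), Prpf18 for Myb (3.24), Txlna for Mcidas (4.54), Nos3 for Trp73 (4.82) and Fech for Foxj1 (5.75). Among the 8 genes themselves the closest were Rfx2 and Myb (7.81) and the farthest Rfx3 and Gmnc (61.5).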

How the data were processed

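Per the submitters' processing notes, the tools were Bowtie2, HOMER, MACS2 and Trimmomatic (versions not stated) and the genome was mm10; aligner and caller settings, and whether an IgG library entered peak calling, are not given in the sources used here. Libraries were sequenced to at least 15 mil reads, per the labels' protocols. The exact read depth per library is unknown, so no interval is given. The authors deposited 1 peak list per library, with the fold enrichment (a ratio), −log10 p and −log10 q of each peak, and a score that was not used. Peaks on assembled autosomes and sex chromosomes were kept. Gene positions and sequences came from RefSeq (GRCm38.p6, the assembly of mm10); the gene table gives no strand, so either gene end was used, and starts came from the promoter table, which holds 7 of the 8 genes. The members and lists were chosen with earlier results of these data known. Named genes were all 8 genes, neighbours nearest to their peaks, list genes with a shared or no linked region, and the genes of most similar profile, of which the first is named. Exact permutation tests compared 3 against 3 libraries. Alternatives were stricter or equal-length lists, other windows, links and overlaps, and leaving out each library; q under 0.05 was added after seeing the data. 1 further marker list is not reported here. Interval code was tested on simulated data. Python 3.11.15, numpy 2.4.6, pandas 2.3.3, scipy 1.17.1 and matplotlib 3.10.9 were used.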

Additional observations from a re-analysis of the deposited data

How the results depend on the processing

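The share of peaks over H3K4me3, NKX2-1 minus PRDM, was -2.95 percentage points and had no stable sign. Keeping peaks whose −log10 q reached 5 (the strict limit) it was 14.8 (2 NKX2-1 libraries, with 14 and 1 peaks). It was 5.38 at q under 0.05 and 6.36 within the first letter series. Leaving out 1 library at a time gave -7.61 to 1.76, the last without NKX2-1 replicate 2. With a replicate block (NKX2-1 minus PRDM16 within numbers 1 and 2) it was -0.261, from 14.2 and -14.7. For genes with a peak within 1 kb of an end the replicate block gave -3, from -1 and -5, and leaving out a library gave -3 to -0.5. The numbers are not stated to pair samples. The cause of these shifts was not tested. Members with an NKX2-1 region numbered 6, and 0 at the strict limit, 2 with regions in all libraries of the target, 3 at q under 0.05 and 2 to 6 without 1 library. With a PRDM3 region there were 8, and 3 at the strict limit. With a shared region there were 6, and 0 at the strict limit, 1 with regions in all libraries, 3 at q under 0.05 and 1 to 6 without 1 library. Shared regions without H3K4me3 numbered 1, and 0 at the strict limit, with the 20000 strongest peaks, with regions in all libraries and at q under 0.05, and 0 to 2 without 1 library, the highest without H3K4me3 replicate 1. The counts for H3K4me3 and PRDM16 stayed within 1.5 times under every alternative run. No share of all genes is given for the alternatives, so these counts do not show a trait of the 8 genes. PRDM3 has 1 library and no replicate check.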
